A study of Mus musculus with 4 samples.

Results

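The genes described here are 31 members of the cholesterol and fatty acid synthesis pathways, out of 32285 genes measured in single cells of mouse lung. They were found by symbol, and all 31 were present. The set was put together because the level of 1 of them, Idi1, differed between tumor-bearing and normal lung in the fibroblasts of both genotypes. The tumor contrasts in fibroblasts, and the interaction built on them, are therefore given as a description, without a test.

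Lungs came from 4 groups of mice: wild-type (WT) with normal lungs, WT with B16/F10 tumors (a mouse melanoma line), and LAIR1KO mice, which lack the collagen receptor LAIR1, with normal or B16/F10-bearing lungs. Each group was 1 droplet library of 3 replicates marked with hashtag antibodies, so library and group cannot be told apart. The labels give no age, and they do not say that a hashtag is 1 animal, so p-values measure only the spread between these replicates, which may be technical. Lair1, the deleted gene, was at 21.2 to 72.7 CPM (UMIs, the counted transcript ends, scaled to a total of 1000000) in the WT replicates and at 0 to 0.353 CPM in the LAIR1KO replicates. Ddx3y, a Y-linked gene, was at 184 to 209 CPM in the WT normal replicates and at 0 to 0.906 CPM in all others. Sex therefore goes with the contrasts of genotype in normal lung and of tumor in WT, and cannot be told apart from them. The same holds for every interaction, since it includes the WT normal group.

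The libraries held 25216301 to 28034709 gene UMIs in 3295 to 4727 barcodes, and 13 to 17 barcodes of each also occurred in another library. After filters and assignment to a replicate 8618 cells were kept. Cells were clustered without the 31 genes, and a class name ending in "-like" rests on marker genes. Some clusters, most with mixed or unclear markers, were left unnamed and out of the class values. In LAIR1KO normal lung they held 183, 189 and 158 cells of the 3 replicates. A cluster led by endothelial and fibroblast genes together held 318 kept cells there and 10 to 22 in each other group. A cluster of type 2 markers with fibroblast and endothelial transcripts held 68 there and 11 to 23 in each other group. What leaving them out does to the values was not tested. LAIR1KO normal replicate 1 stood apart: 380 of its 728 cells were endothelium-like, 14 were fibroblast-like, and its 9 type 2 epithelium-like cells were under the minimum of 10 cells, so type 2 values of that group come from its other replicates. In whole-class sums, fewer transcripts per cell and fewer cells with the transcript cannot be told apart.

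Cholesterol is built from acetyl-CoA through mevalonate, isoprenoid diphosphates and squalene, and fatty acids from acetyl-CoA through malonyl-CoA. The sterol regulatory element binding proteins, encoded by Srebf1 and Srebf2, switch on both routes, escorted by Scap when sterols are low and held back by Insig proteins when sterols are high. In the lung, type 2 epithelial cells make the lipids of surfactant and are known for strong fatty acid synthesis.

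The promoters of 4 members are printed. Those of Idi1, for which the set was chosen, Insig1, read beside it, and Fasn are printed because the values below turn on these genes. That of Hmgcs1 is printed because it alone among the matched member promoters held the sterol regulatory element core. The printed promoters are RefSeq sequences of GRCm38.p6, the 250 bases before the gene's start, 5′ to 3′ on the gene's strand. Capitals mark the sterol regulatory element core (TCACNCCAC) and the NF-Y box (CCAAT), each in either orientation.
Idi1, chr13:8885356-8885605, plus strand: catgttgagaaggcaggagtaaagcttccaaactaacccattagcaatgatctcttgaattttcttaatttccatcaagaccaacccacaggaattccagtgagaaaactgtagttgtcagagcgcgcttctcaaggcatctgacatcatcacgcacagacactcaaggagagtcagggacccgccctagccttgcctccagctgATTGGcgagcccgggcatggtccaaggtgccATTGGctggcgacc
Hmgcs1, chr13:119690101-119690350, plus strand: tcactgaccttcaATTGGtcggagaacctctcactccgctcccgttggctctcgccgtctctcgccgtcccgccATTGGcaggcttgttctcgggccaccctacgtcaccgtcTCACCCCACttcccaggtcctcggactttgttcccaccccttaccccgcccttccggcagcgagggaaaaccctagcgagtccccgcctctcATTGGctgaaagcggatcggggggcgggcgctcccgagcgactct
Insig1, chr5:28071162-28071411, plus strand: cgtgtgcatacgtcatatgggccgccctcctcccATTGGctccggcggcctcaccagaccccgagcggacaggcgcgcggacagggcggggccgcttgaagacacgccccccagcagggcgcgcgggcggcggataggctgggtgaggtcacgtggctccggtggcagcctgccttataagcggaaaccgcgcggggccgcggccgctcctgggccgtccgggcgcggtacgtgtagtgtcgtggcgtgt
Fasn, chr11:120824548-120824797, minus strand: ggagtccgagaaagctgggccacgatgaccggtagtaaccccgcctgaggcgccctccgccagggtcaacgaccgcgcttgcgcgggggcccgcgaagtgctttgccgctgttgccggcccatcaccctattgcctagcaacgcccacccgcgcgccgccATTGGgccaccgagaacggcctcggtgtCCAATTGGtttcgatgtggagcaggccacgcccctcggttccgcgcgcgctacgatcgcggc

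A promoter was matched for 24 of the 31 genes; Fdps, Fdft1, Sqle, Stard4, Scd1, Scd2 and Fads1 were not matched. Some genes have several starts, so these matches are 30 promoters, and shares are per promoter. On either strand CCAAT was in the 250 bases of 19 of them (63.3%), against 33.8% of 32851 promoters. The GC box GGGCGG was in 22 (73.3%), against 32.7% of all. The core TCACNCCAC was found in 1 member promoter, that of Hmgcs1, 137 bases before the start, and in 1.05% of all promoters. In Idi1 the CCAAT boxes lay 45 and 14 bases before the start. A match describes letters in this window and does not show binding.

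Type 2 epithelium-like cells carried these pathways at the highest level. The 31 genes summed to a median of 129 UMIs per 10000 in 11 replicates (range 94.8 to 171), against 14 in fibroblast-like cells (11.5 to 17.4, 12 replicates) and 3.66 in neutrophil-like cells (2.92 to 4.11, 12 replicates). Without Scd1 these medians were 47.5, 13.1 and 3.32. The type 2 cells had 123465 to 149027 CPM of Sftpc, surfactant protein C, and the 11 fibroblast markers summed to 16254 to 19526 CPM in fibroblast-like cells. Of the 31 genes, 21 had their highest median in type 2 epithelium-like cells among classes with at least 4 replicates. For 9 of these (Insig1, Hmgcs1, Idi1, Fdps, Fdft1, Acly, Acaca, Fasn and Scd1) every type 2 replicate lay above every replicate of the other such classes. The share of all genes with these orders was not counted, so the 21 and the 9 describe the members alone. Classes were made from expression, so levels by class carry no test. The replicates of some classes did not come from all 4 groups. Type 1 epithelium-like replicates were 3 from LAIR1KO normal, 1 from WT normal and 1 from WT tumor-bearing lung. Natural killer cell-like and alveolar macrophage-like replicates all came from tumor-bearing lung.

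**Figure D1:**
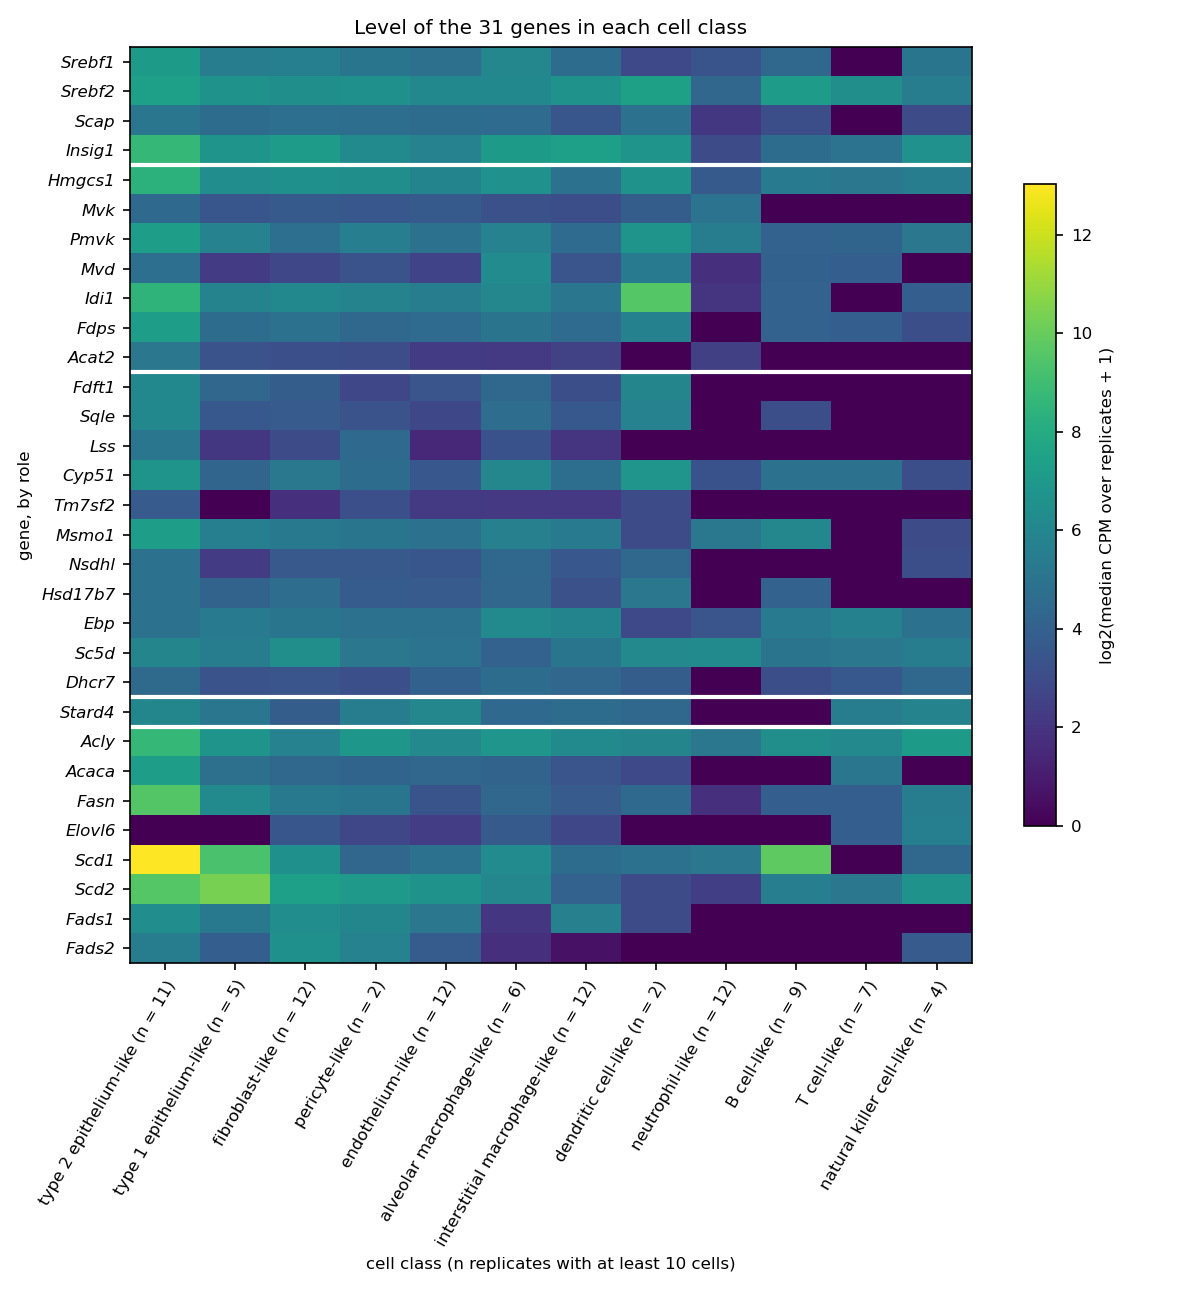
Median level of the 31 genes (rows, grouped by role) in each cell class (columns, over the replicates with at least 10 cells), as log2 of CPM plus 1. Scd1 reaches 8301 CPM in type 2 epithelium-like cells, Scd2 1325 CPM in type 1 epithelium-like cells and Idi1 768 CPM in dendritic cell-like cells.

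Among the fatty acid genes, Scd1, a desaturase that makes monounsaturated fatty acids, was at 8301 CPM in type 2 epithelium-like cells (median, 5155 to 11655). Fasn, the fatty acid synthase, was at 731 CPM there (564 to 858), and its next class, type 1 epithelium-like cells, at 71 CPM (59.5 to 116). Acly, which makes cytosolic acetyl-CoA from citrate, was at 406 CPM (306 to 523) in type 2 epithelium-like cells and at 138 CPM (68.4 to 159) in natural killer cell-like cells, the next class. These genes and Acaca had their highest median in type 2 epithelium-like cells, and the other 4 of the branch, Elovl6, Scd2, Fads1 and Fads2, did not. The elongase Elovl6 had 1 UMI in all 11 type 2 replicates together, while natural killer cell-like cells had 47.4 CPM (13.7 to 79.7, 8 UMIs in 4 replicates). Fads2, the desaturase that opens the polyunsaturated branch, was at 91.8 CPM (75 to 108) in fibroblast-like cells and at 44.2 CPM (27.5 to 93.5) in type 2 epithelium-like cells, with overlapping ranges.

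Scd2 is another stearoyl-CoA desaturase. Its median was 1325 CPM in type 1 epithelium-like cells (922 to 2069, 5 replicates), above the 654 to 898 CPM of the type 2 replicates and the 113 to 233 CPM of fibroblast-like cells. The 1683 Scd2 UMIs of all 144 type 1 epithelium-like cells were spread out, with at most 45 in 1 cell. Their Scd1 was not, since 1 cell held 387 of 927 UMIs. These type 1 replicates also had 4420.2 to 37244 CPM of Sftpc, and the part of type 2 transcripts in their values was not tested.

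B cell-like cells had Scd1 at 899.9 CPM (565 to 1200.3, 9 replicates), the highest median after type 2 epithelium-like cells, with at most 14 of 478 UMIs in 1 cell. In T cell-like cells 1 Scd1 UMI was counted in 7 replicates. Scd1 was also counted per 1000 Sftpc UMIs. The ratio was 59.5 in type 2 epithelium-like cells, 52 in type 1 epithelium-like, 47.6 in natural killer cell-like, 73.7 in alveolar macrophage-like, 83.1 in neutrophil-like and 88.7 in interstitial macrophage-like cells. It was 13.5 in T cell-like, 125 in dendritic cell-like, 135 in pericyte and smooth muscle-like, 139.9 in endothelium-like, 370.1 in fibroblast-like and 2375 in B cell-like cells. The part of free RNA from type 2 cells in the Scd1 of other classes was not tested.

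In the sterol branch, Hmgcs1, which makes HMG-CoA, was at 334 CPM in type 2 epithelium-like cells (204 to 518) and at 96.1 CPM in alveolar macrophage-like cells (64.5 to 161, 6 replicates). Idi1, which interconverts the isoprenoid units, was at 353 CPM (251 to 472) in type 2 epithelium-like cells, 65.7 CPM (25.4 to 107) in fibroblast-like cells and 65.2 CPM (24.2 to 159) in alveolar macrophage-like cells, and the last 2 overlapped. Mvd, the decarboxylase before Idi1, was highest in alveolar macrophage-like cells at 75.7 CPM (42.9 to 137), against 26.1 CPM (6.88 to 38.2) in type 2 epithelium-like cells. The late sterol enzymes Ebp and Dhcr7 also had their highest medians in alveolar macrophage-like cells, but their ranges overlapped those of the next class. Stard4, a sterol carrier, was at 64.7 CPM (35 to 98.8) in endothelium-like and 61.8 CPM (46.7 to 103) in type 2 epithelium-like cells, without separation.

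Of the regulators, Srebf1 was at 135 CPM (81.8 to 172) in type 2 epithelium-like cells and 65.3 CPM (48.3 to 83.5) in alveolar macrophage-like cells, the next class. Srebf2 was at 163 CPM (102 to 199) in type 2 epithelium-like and 142 CPM (76.8 to 299.98) in B cell-like cells, and Scap at 34.1 CPM (24.9 to 64.3) in type 2 epithelium-like and 25.8 CPM (9 to 93.1) in fibroblast-like cells. All these pairs overlapped. Insig1 did not overlap its next class, with 408 CPM (329.8 to 595) in type 2 epithelium-like and 161 CPM (119 to 253) in interstitial macrophage-like cells.

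Set against the class with the next highest median, the other enzymes fell into a separated and an overlapping set. Fdps was at 158 CPM (147 to 298) in type 2 epithelium-like cells and Fdft1, the first step committed to sterols, at 67.3 CPM (50.3 to 117). Pmvk, phosphomevalonate kinase, was at 148 CPM (90.3 to 205), Msmo1 at 154 CPM (114 to 309.8) and Acaca, which makes malonyl-CoA, at 153 CPM (123 to 183). Each of these 5 lay above every replicate of its next class. Pmvk and Msmo1 still overlapped alveolar macrophage-like replicates, which reached 113.9 CPM for Pmvk and 167 CPM for Msmo1. In contrast Sqle at 65.5 CPM (42 to 123), Cyp51 at 106 CPM (76.9 to 161), Lss, lanosterol synthase, at 33.6 CPM (13.8 to 68) and Nsdhl at 29.2 CPM (12.5 to 83.1) overlapped alveolar macrophage-like cells, their next class. Hsd17b7 at 29 CPM (17.7 to 70.1) overlapped fibroblast-like cells, and Tm7sf2, a sterol reductase, at 12.4 CPM (5.5 to 20.8), overlapped endothelium-like cells. Fads1, the partner desaturase of Fads2, was at 83.1 CPM (63.8 to 144) in fibroblast-like and 83.1 CPM (51 to 96.4) in type 2 epithelium-like cells, and Acat2, which makes acetoacetyl-CoA, at 35.4 CPM (20.4 to 51.4) in the latter.

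Neutrophil-like cells had low sums but held some steps. Mvk, mevalonate kinase, had its highest median of all classes there, 29.7 CPM (4.23 to 45, 12 replicates), overlapping the 10.6 to 29.7 CPM of type 2 replicates. Sc5d, a late sterol desaturase, was at 70.7 CPM (35.5 to 128), beside 84.3 CPM (61.5 to 111) in fibroblast-like cells, its highest class. Lss, Nsdhl, Hsd17b7 and Elovl6 had 0 UMIs in all 12 neutrophil replicates.

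Dendritic cell-like cells stood out for Idi1. In the 2 replicates with at least 10 such cells, both from tumor-bearing lung and with 12 cells each, Idi1 was at 649 CPM in WT and 887 CPM in LAIR1KO. Over all 45 kept cells of the class 194 Idi1 UMIs were counted, at most 23 in 1 cell, and 86.7% of the cells had one, against 79.6% of type 2 epithelium-like cells. Insig1 was at 159 CPM and 50.7 CPM in the same replicates, and Scd1 at 57.7 CPM and 0 CPM. With 1 replicate per group no test was made.

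In type 2 epithelium-like cells the sum of the sterol genes was highest in LAIR1KO normal lung, and that of the fatty acid genes did not separate the groups. The LAIR1KO normal replicates held 17 and 20 such cells. Those of WT normal held 40 to 89, of WT tumor-bearing 39 to 79 and of LAIR1KO tumor-bearing lung 16 to 67. The 18 mevalonate and squalene genes summed to 22 and 24.4 UMIs per 10000 in the LAIR1KO normal replicates, against 14.4 to 16.8 in WT normal, 13 to 18 in WT tumor-bearing and 16.2 to 19 in LAIR1KO tumor-bearing lung. The 8 fatty acid genes summed to 104 and 106 in LAIR1KO normal, within the 83.7 to 112 of WT normal, the 99.1 to 113 of WT tumor-bearing and the 70 to 143 of LAIR1KO tumor-bearing lung. Fibroblast and endothelial markers were also highest in these LAIR1KO normal type 2 replicates. There the 11 fibroblast markers summed to 853 and 879.5 CPM, against 107 to 248 CPM in the other groups, and the 8 endothelial markers to 132 and 216 CPM, against 32.3 to 91.9 CPM. Their part in the sterol values was not tested.

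Insig1, the sterol-sensing brake, was at 369, 416 and 331 CPM (WT, normal lung), 329.8, 333 and 443 CPM (WT, tumor), 567 and 595 CPM (LAIR1KO, normal lung) and 408, 440.5 and 382 CPM (LAIR1KO, tumor). The LAIR1KO normal pair was above all other replicates. Between genotypes in normal lung the log2 fold change was 0.57 ± 0.17 (SE), which did not pass edgeR's quasi-likelihood test (3 against 2 replicates, Benjamini-Hochberg adjusted p = 0.145). Hmgcs1 was at 319.7, 334 and 224 CPM (WT, normal lung), 204, 218 and 389.6 CPM (WT, tumor), 456 and 518 CPM (LAIR1KO, normal lung) and 322, 351 and 354 CPM (LAIR1KO, tumor). The LAIR1KO normal pair was again above the rest, with a log2 fold change of 0.66 ± 0.23 (SE) against WT normal (edgeR adjusted p = 0.283).

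Idi1 in type 2 epithelium-like cells was at 369, 351 and 289 CPM (WT, normal lung), 315, 251 and 353 CPM (WT, tumor), 397 and 472 CPM (LAIR1KO, normal lung) and 433, 330.4 and 388 CPM (LAIR1KO, tumor). WT normal and LAIR1KO normal did not overlap, and the tumor-bearing groups overlapped the normal group of their own genotype. With tumor the log2 fold change was -0.20 ± 0.15 (SE) in WT and -0.11 ± 0.19 in LAIR1KO (edgeR adjusted p = 0.826 and 0.953), so no difference beyond the spread between replicates was detected. Without LAIR1KO normal replicate 3 the LAIR1KO value was 0.0044.

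The sum of the fatty acid genes, and Scd1 by itself, varied most among LAIR1KO tumor-bearing replicates. Scd1 was at 8301, 8907 and 6211 CPM (WT, normal lung), 8425, 7839.6 and 8934 CPM (WT, tumor), 8236 and 8604 CPM (LAIR1KO, normal lung) and 11655, 5155 and 7759 CPM (LAIR1KO, tumor). The last group holds both the highest and the lowest value. Fasn was at 795, 749 and 687 CPM (WT, normal lung), 858, 712 and 716 CPM (WT, tumor), 731 and 569 CPM (LAIR1KO, normal lung) and 858, 564 and 853 CPM (LAIR1KO, tumor), and Acly at 427, 406 and 405 CPM (WT, normal lung), 327, 329 and 422 CPM (WT, tumor), 456 and 306 CPM (LAIR1KO, normal lung) and 523, 351 and 416 CPM (LAIR1KO, tumor). For both genes all groups overlapped. Scd2 ranged from 654 to 898 CPM over the 11 replicates.

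**Figure D2:**
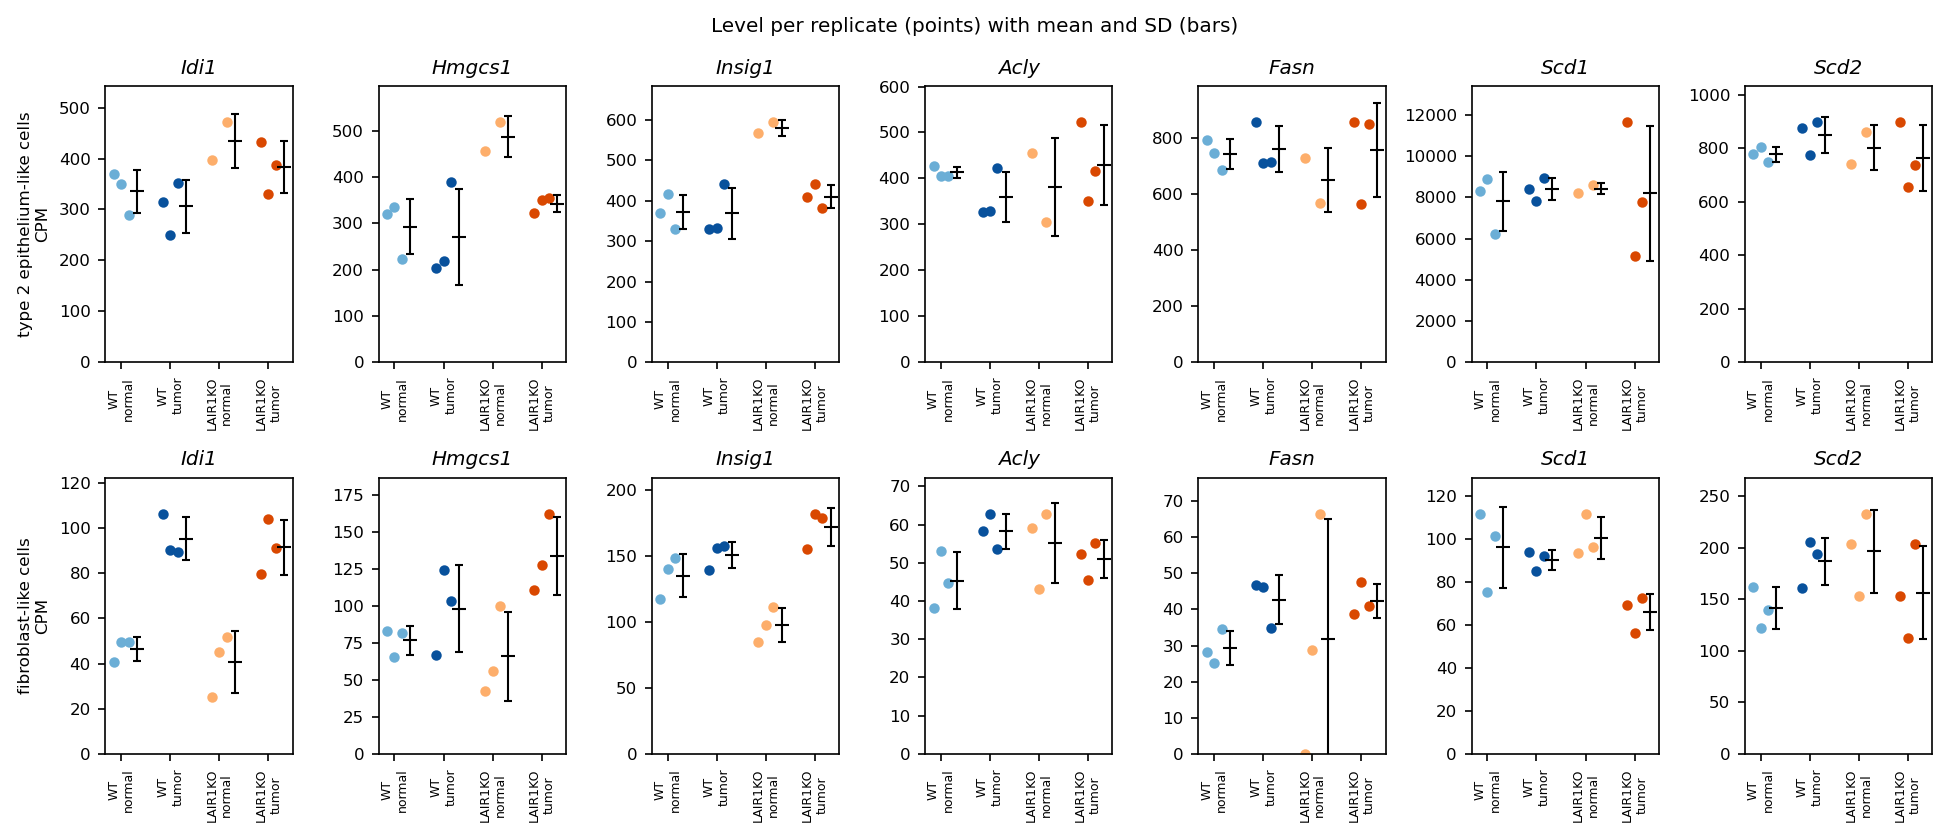
CPM of members in type 2 epithelium-like and fibroblast-like cells by group, with 1 point per replicate. In type 2 epithelium-like cells the LAIR1KO normal points of Insig1 (567 and 595 CPM) and Hmgcs1 (456 and 518 CPM) lie above all others, and in fibroblast-like cells every tumor-bearing point of Idi1 lies above every normal one.

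Of the 31 genes 30 could be tested in type 2 epithelium-like cells, and Elovl6 was under the filter on low counts. For genotype in normal lung none of the 30 passed edgeR's test, beside 0.88% of 7499 genes, and 7 had an unadjusted p under 0.05, beside 8.45% of all genes. Their log2 fold changes were above 0 for 18 and below for 12, with a median of 0.23 beside -0.02 over all genes tested. In 13 genes both LAIR1KO replicates lay above the 3 WT replicates, which held for 17.7% of all genes: Cyp51, Ebp, Fdft1, Fdps, Hmgcs1, Hsd17b7, Idi1, Insig1, Lss, Msmo1, Mvk, Pmvk and Sc5d. All of these but Insig1 are enzymes of the sterol route, while Acat2 and Nsdhl were lower in both LAIR1KO replicates (13.4% of all genes). Hsd17b7, a sterol ketone reductase, had a log2 fold change of 1.11 ± 0.37 (SE, edgeR adjusted p = 0.258). The fibroblast and endothelial markers given above go with this contrast and with that of tumor in LAIR1KO.

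**Figure D3:**
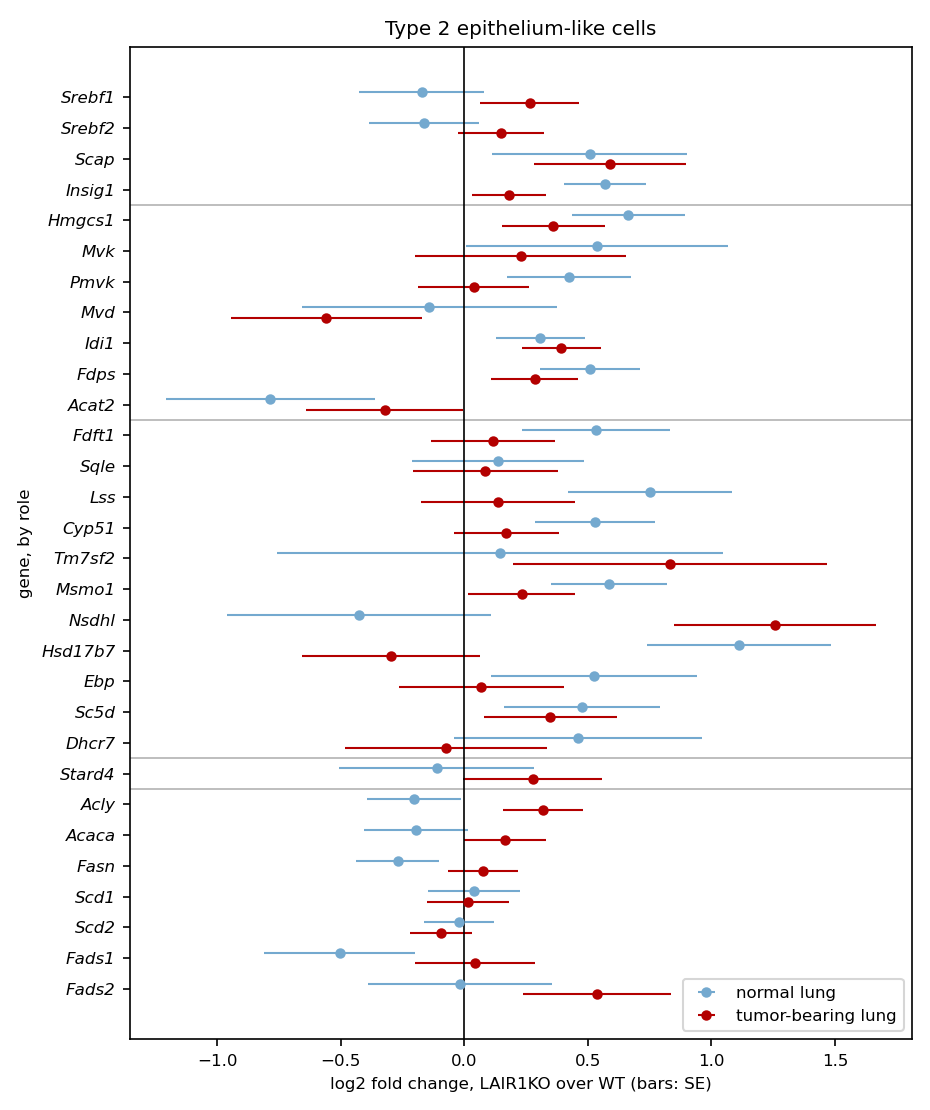
Log2 fold change between LAIR1KO and WT in type 2 epithelium-like cells, with SE as bars, for the 30 genes tested (rows), in normal and in tumor-bearing lung. In normal lung 18 of 30 lie above 0, in tumor-bearing lung 25, and none passed the test in either.

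For genotype in tumor-bearing lung 25 of 30 type 2 log2 fold changes were above 0 (median 0.17, beside 0.001 over all genes tested). The share of all genes above 0 was not counted. None passed edgeR's test (0.08% of all genes did), and 2 had an unadjusted p under 0.05, beside 490 of 7499 genes. Fdps and Scap were higher in every LAIR1KO replicate (4.55% of all genes). Idi1 had 0.39 ± 0.16 (SE, edgeR adjusted p = 0.663) and Nsdhl, an enzyme of sterol demethylation, 1.26 ± 0.41 (adjusted p = 0.552). For tumor in LAIR1KO 13 were above and 17 below 0, and none passed (0.64%). There 7 genes, Hmgcs1, Hsd17b7, Insig1, Lss, Msmo1, Pmvk and Sc5d, were lower in every tumor-bearing replicate (13.5% of all genes), with -0.46 ± 0.17 for Insig1 (edgeR adjusted p = 0.444). These comparisons share the LAIR1KO normal replicates with the genotype contrast above. For tumor in WT 11 were above and 19 below 0, none passed (0.467%), and Nsdhl was lower in every replicate (5.36%). In the interaction none passed (0.533%).

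Fibroblast-like cells showed the pattern for which the set was chosen. Idi1 was at 40.5, 49.7 and 49.4 CPM (WT, normal lung), 107, 90.5 and 89.3 CPM (WT, tumor), 25.4, 45 and 51.8 CPM (LAIR1KO, normal lung) and 79.5, 104 and 91.1 CPM (LAIR1KO, tumor). Every tumor-bearing replicate was above every normal one in both genotypes. The LAIR1KO normal replicates held 14, 62 and 34 such cells, against 73 to 209 in LAIR1KO tumor-bearing lung. Together they had 42 Idi1, 63 Hmgcs1 and 94 Insig1 UMIs, so the values of that group rest on few counts. The log2 fold changes of the fit were 0.99 ± 0.17 (SE) in WT and 1.06 ± 0.23 in LAIR1KO. As a difference of mean log2 CPM they were 1.04 and 1.22, and 0.67 and 0.63 when cells without a hashtag call were assigned to their highest hashtag.

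Other genes of the sterol route were read beside it. Hmgcs1 was at 83.4, 65.7 and 81.5 CPM (WT, normal lung), 66.8, 125 and 104 CPM (WT, tumor), 42.3, 55.8 and 99.9 CPM (LAIR1KO, normal lung) and 111, 128 and 163 CPM (LAIR1KO, tumor), so normal and tumor-bearing replicates separated in LAIR1KO and overlapped in WT. Fdps, which makes farnesyl diphosphate from the Idi1 products, had WT means of 23.7 ± 2.36 CPM (SD, n = 3) without and 34.1 ± 4.28 CPM with tumor, and LAIR1KO means of 21.3 ± 7.53 CPM without and 48 ± 6.49 CPM with tumor. Cyp51, the lanosterol demethylase, had WT means of 29.9 ± 3.26 CPM (SD, n = 3) without and 53.6 ± 14.3 CPM with tumor, and LAIR1KO means of 19.2 ± 9.62 CPM without and 51.7 ± 6.74 CPM with tumor. Idi1, Fdps and Cyp51 were the members higher in every tumor-bearing replicate of both genotypes. The share of all genes for which this held in both was not counted, and these contrasts chose the set.

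Insig1 in fibroblast-like cells was at 117, 139.9 and 148 CPM (WT, normal lung), 139, 156 and 157 CPM (WT, tumor), 84.6, 97.2 and 111 CPM (LAIR1KO, normal lung) and 155, 182 and 178 CPM (LAIR1KO, tumor), with log2 fold changes with tumor of 0.13 ± 0.13 (SE) in WT and 0.83 ± 0.17 in LAIR1KO. The LAIR1KO normal replicates were the lowest of the 12. Srebf2, the sterol regulator, had WT means of 90.7 ± 10.1 CPM (SD, n = 3) without and 90.8 ± 5.75 CPM with tumor, and LAIR1KO means of 65.6 ± 13.5 CPM without and 106 ± 16.4 CPM with tumor. Fdft1, squalene synthase, had 4 UMIs in the LAIR1KO normal replicates together and 73 in the LAIR1KO tumor-bearing ones, so its log2 fold change of 2.47 ± 0.63 rests on few counts.

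Of the fatty acid genes, Scd1 was at 112, 75 and 101 CPM (WT, normal lung), 93.8, 85 and 92 CPM (WT, tumor), 93.1, 112 and 96.2 CPM (LAIR1KO, normal lung) and 69.1, 56.3 and 72.3 CPM (LAIR1KO, tumor), with every LAIR1KO tumor-bearing replicate below every replicate of the other groups. Scd2 was at 162, 122 and 139 CPM (WT, normal lung), 161, 205 and 194 CPM (WT, tumor), 203, 153 and 233 CPM (LAIR1KO, normal lung) and 153, 113 and 203 CPM (LAIR1KO, tumor). Its normal and tumor-bearing replicates overlapped in both genotypes. Summed, the 18 sterol genes were at 3.8 to 4.94 UMIs per 10000 in WT normal and 5.55 to 6.66 in WT tumor-bearing lung, and at 3.3 to 4.66 and 6.01 to 7.81 in LAIR1KO. The 8 fatty acid genes were at 4.87 to 5.62 and 5.7 to 5.85 in WT and at 5.55 to 6.62 and 4.51 to 5.91 in LAIR1KO. In WT both sums were higher in every tumor-bearing than in every normal replicate. In LAIR1KO this held for the sterol sum, and the fatty acid sums overlapped.

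**Figure D4:**
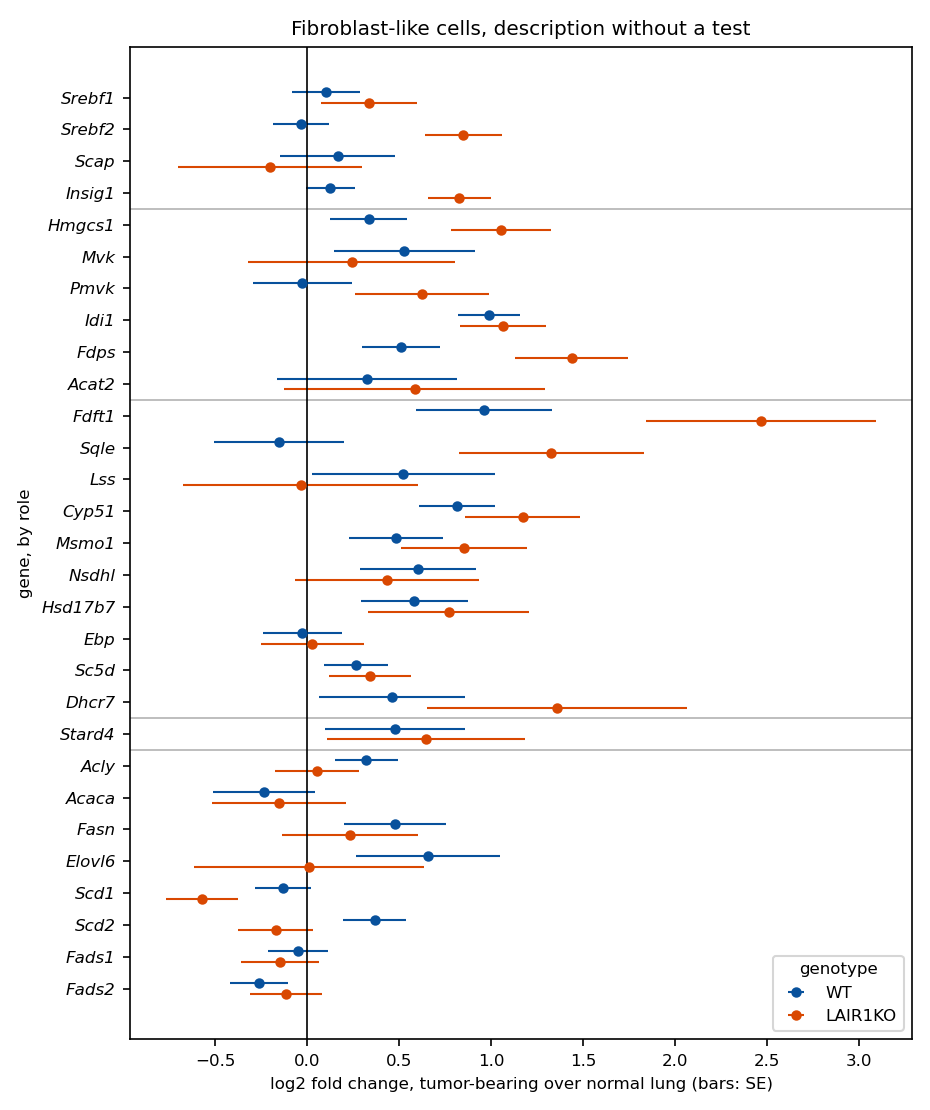
Log2 fold change between tumor-bearing and normal lung in fibroblast-like cells, with SE as bars, for the 29 genes fitted (rows) in each genotype, without a test. Idi1 lies at 0.99 in WT and 1.06 in LAIR1KO, and Scd1 at -0.13 and -0.57.

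As a description, 21 of 29 fitted genes had log2 fold changes above 0 with tumor in WT (median 0.33) and 22 of 29 in LAIR1KO (median 0.43), where over all genes the medians were -0.001 and 0.005. In WT 5 genes (Acly, Cyp51, Fasn, Fdps and Idi1) were higher in every tumor-bearing replicate, beside 8.95% of all genes. In LAIR1KO 8 were (Cyp51, Fdft1, Fdps, Hmgcs1, Idi1, Insig1, Pmvk and Srebf2), beside 5.34% of all genes, and Scd1 was lower (6.52%). These contrasts chose the set, so nothing is read from the counts. Mvd and Tm7sf2 were under the filter on low counts, and Acat2 has a close tandem copy, Acat3, so its counts are uncertain.

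The fibroblast-like class held 5 clusters, and Idi1 was also read in each. In the largest, led by Lif and Has1, UMIs summed per library gave 38.9 CPM without tumor in WT (95% exact Poisson interval 30.1 to 49.5) and 69.1 with it (55.3 to 85.4), and in LAIR1KO 29.3 (15.2 to 51.3) and 64.1 (51.1 to 79.4). In the cluster of Rbp4 and Gas1 it was at 57.4 (42.8 to 75.5) and 93.7 CPM (74.3 to 117) in WT and at 35.3 (16.2 to 67.1) and 133 CPM (106 to 165) in LAIR1KO. In the cluster of Tnc and Angptl4 Idi1 was at 60.1 (35.6 to 94.9) and 218 CPM (157 to 296) in WT. In LAIR1KO it was at 25 (3.03 to 90.4, 2 UMIs in 12 cells) and 132 CPM (91 to 186) there. The smallest cluster, led by Lum and Dcn, had 4 and 6 Idi1 UMIs in WT and 3 and 37 in LAIR1KO. The cluster of Slc7a10 and Tcf21 had 56 CPM in WT normal and 128 in WT tumor-bearing, but 117 in LAIR1KO normal (66.7 to 189.5, 16 UMIs in 25 cells) and 55.9 in LAIR1KO tumor-bearing lung (38.3 to 79). In LAIR1KO this cluster had the opposite order to the others. The intervals cover counting error only, and a library sum is 1 value per group.

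The Lif and Has1 cluster made up 35.5 to 38.1% of the fibroblast-like cells of each group, that of Slc7a10 and Tcf21 17.8 to 26.6%, that of Tnc and Angptl4 7.72 to 10.9% and that of Lum and Dcn 4.75 to 7.93%. The Rbp4 and Gas1 cluster went from 24.3% without to 32.6% with tumor in WT and from 25.5% to 20% in LAIR1KO, so its share moved in opposite directions. Median UMIs per fibroblast-like cell went from 9864 without to 7778 with tumor in WT, and from 7998 to 6738 in LAIR1KO. Sftpc was at 269.6 to 301 CPM without and 233 to 341 with tumor in WT, and at 142 to 152 and 140.2 to 197 CPM in LAIR1KO fibroblast-like cells, with overlapping ranges in both genotypes. The 8 endothelial markers summed to 126 to 296 CPM in LAIR1KO normal and 30.3 to 47.2 CPM in the other groups, and the 8 interstitial macrophage markers to 16.9 to 66.6 and 104 to 144 CPM in LAIR1KO normal and tumor-bearing lung. Their part in the LAIR1KO values was not tested.

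The genotype contrasts in fibroblast-like cells were not used in choosing the set. In normal lung none of 29 genes passed edgeR's test (0.307% of 8809 genes did), with 12 above and 17 below 0. Insig1 and Srebf2 were lower in every LAIR1KO replicate (6.83% of all genes), with log2 fold changes of -0.47 ± 0.17 (SE, edgeR adjusted p = 0.518) and -0.62 ± 0.21 (adjusted p = 0.476). In tumor-bearing lung none of 29 passed (0% of all genes did), with 16 above and 13 below 0. Fdps and Sqle, squalene epoxidase, were higher in every LAIR1KO replicate (3.26% of all genes), at 0.52 ± 0.20 and 0.85 ± 0.34 (SE). Elovl6, Scap and Scd1 were lower in every one (7.25%), with -0.37 ± 0.17 for Scd1 (edgeR adjusted p = 1). Sftpc, given above, was also lower in every LAIR1KO replicate of both kinds of lung. Idi1 had -0.10 ± 0.25 in normal and -0.03 ± 0.16 in tumor-bearing lung (edgeR adjusted p = 0.977 and 1).

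In alveolar macrophage-like cells, which reached 10 cells in tumor-bearing replicates alone, Insig1 was at 72.1, 103 and 92.7 CPM in WT and 178, 196 and 169 CPM in LAIR1KO. The groups did not overlap. The log2 fold change was 1.03 ± 0.19 (SE), with the smallest adjusted p of the member tests (edgeR adjusted p = 0.0983, 3 against 3 replicates). Without the filter on low counts it passed (adjusted p = 0.00184), and over its 13 alternatives the adjusted p ran from 0.00184 to 0.63 with log2 fold changes of 0.91 to 1.17. Msmo1, a sterol methyl oxidase, was at 56.9, 42.9 and 24.2 CPM in WT and 167, 96.3 and 36.2 CPM in LAIR1KO, overlapping, with 1.18 ± 0.47 (edgeR adjusted p = 0.804, and 0.0179 to 0.999 over its alternatives). Idi1 was at 64.5, 65.9 and 24.2 CPM in WT and 159, 96.3 and 60.4 CPM in LAIR1KO, also overlapping. Of 13 genes tested 11 were above 0, none passed (0.0245% of 4075 genes did), and Acly and Insig1 were higher in every replicate (5.2%). Sftpc was at 296 to 3771 CPM in WT and 121 to 5049 CPM in LAIR1KO, and its part in the result was not tested.

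Interstitial macrophage-like cells had Insig1 at 124, 119 and 145 CPM (WT, normal lung), 180.2, 195 and 176 CPM (WT, tumor), 151, 128 and 123 CPM (LAIR1KO, normal lung) and 211, 253 and 171 CPM (LAIR1KO, tumor). All tumor-bearing replicates were above all normal ones. The log2 fold changes with tumor were 0.49 ± 0.16 (SE, edgeR adjusted p = 0.212) in WT and 0.66 ± 0.18 (adjusted p = 0.176) in LAIR1KO, where it was 0.0165 without the filter on low counts and ran from 0.0165 to 0.574 over 13 alternatives. Scd2 was at 8.43, 9.18 and 2.23 CPM (WT, normal lung), 26.3, 23.8 and 20.1 CPM (WT, tumor), 7.57, 14.5 and 18 CPM (LAIR1KO, normal lung) and 8.08, 23.9 and 17.7 CPM (LAIR1KO, tumor). In WT its log2 fold change with tumor was 1.67 ± 0.44 (SE, edgeR adjusted p = 0.102, and 0.0159, without the filter, to 0.306 over 12 alternatives). For Idi1 the values were 0.46 ± 0.31 in WT and 0.56 ± 0.35 in LAIR1KO (edgeR adjusted p = 0.687 and 0.792).

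Of 17 genes tested in interstitial macrophage-like cells none passed for tumor in WT (0.534% of 7116 genes did) or in LAIR1KO (0.253%). In WT 7 genes (Cyp51, Dhcr7, Fads1, Insig1, Msmo1, Scd2 and Stard4) were higher in every tumor-bearing replicate, beside 8.09% of all genes, and in LAIR1KO Insig1 was (7.07%). Between genotypes none passed in normal (0.717%) or tumor-bearing lung (0.0843%), nor in the interaction (0.379%). In normal lung Hmgcs1 was higher (6.76% of all genes) and Sc5d and Scd1 were lower (6.52%) in every LAIR1KO replicate, and in tumor-bearing lung Scd1 was lower (6.93%). Sftpc was also lower in every LAIR1KO replicate, at 151 to 212 CPM against 311 to 411 CPM in normal and 172 to 208 against 259 to 339 CPM in tumor-bearing lung. The 7 neutrophil markers summed to 1182 to 2967 CPM in the LAIR1KO normal replicates, against 539 to 775 CPM in WT normal, 600.2 to 668 in WT tumor-bearing and 538 to 1161 in LAIR1KO tumor-bearing lung. The part of these transcripts in the results was not tested.

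Endothelium-like cells had Hmgcs1 at 57.5, 88.9 and 69.2 CPM (WT, normal lung), 33.5, 32.9 and 54.2 CPM (WT, tumor), 46.6, 65.1 and 65.2 CPM (LAIR1KO, normal lung) and 58.4, 105 and 46.3 CPM (LAIR1KO, tumor). The WT tumor-bearing replicates were below the WT normal ones, with a log2 fold change of -0.92 ± 0.33 (SE, edgeR adjusted p = 0.64), and between genotypes in tumor-bearing lung it was 0.96 ± 0.34 (adjusted p = 1). Idi1 had 0.18 ± 0.33 with tumor in WT and 0.07 ± 0.27 in LAIR1KO, the latter -0.14 without LAIR1KO normal replicate 1. None of 18 genes passed in normal (0.6% of all genes did) or tumor-bearing lung between genotypes (0%), with tumor in WT (0.0558%) or LAIR1KO (1.59%), or in the interaction (0.0139%). Hmgcs1, Sc5d and Scap were lower in every WT tumor-bearing replicate (5.1% of all genes), and Ebp was higher in every LAIR1KO tumor-bearing one (8.51%). Every LAIR1KO replicate lay above WT for Acly and Scap in normal (7.72%) and for Dhcr7, Ebp and Scap in tumor-bearing lung (3.92%). The 11 fibroblast markers summed to 1742 to 4045 CPM in LAIR1KO normal endothelium-like cells, against 403 to 1394 CPM in the other groups, so they go with the contrasts of genotype in normal lung and of tumor in LAIR1KO. Their part in the results was not tested.

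In neutrophil-like cells 6 genes could be tested. Mvk was at 33.7, 45 and 26.9 CPM (WT, normal lung), 16.4, 16.8 and 4.23 CPM (WT, tumor), 32.1, 39.3 and 33.7 CPM (LAIR1KO, normal lung) and 28.5, 30.9 and 27.4 CPM (LAIR1KO, tumor). With tumor in WT its log2 fold change was -1.37 ± 0.47 (SE, edgeR adjusted p = 0.133), and it was lower in every tumor-bearing replicate of both genotypes (13% of all genes in WT and 9.32% in LAIR1KO). No member passed between genotypes in normal (0.794% of all genes did) or tumor-bearing lung (0.367%), with tumor in WT (2.35%) or LAIR1KO (0.153%), or in the interaction (0.825%). Pmvk was also lower in every WT tumor-bearing replicate, and Msmo1 was higher in every LAIR1KO one (6.29%). Without tumor Msmo1 and Scd1 were lower in every LAIR1KO replicate than in WT (9.96%), and with tumor Mvk was higher (7.15%) and Scd1 lower (9.38%). Sftpc was lower there as well in every LAIR1KO replicate, at 234 to 321 against 483 to 604 CPM without and 286 to 297 against 472 to 533 CPM with tumor, and its part in the Scd1 values was not tested. In B cell-like cells 2 genes were tested and neither passed (0% of all genes for genotype in tumor-bearing lung, 0.112% for tumor in WT), and in T cell-like and natural killer cell-like cells none was above the filter.

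Over all classes and contrasts that the choice of the set did not use, 430 tests of the 31 genes gave 0 calls with edgeR, beside 0.452% of the tests of all genes in the same classes and contrasts. An unadjusted p under 0.05 came from 46 of them (10.7%), beside 8.14% over all genes. DESeq2 gave 0 calls (0.508% over all genes), with 60 adjusted p-values not given, and 31 unadjusted p-values under 0.05 (7.21%, beside 4.49%). Without the filter on low counts edgeR called 4 of 808 tests, those named above, beside 0.615% over all genes.

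Another 40 genes of sterol trafficking, lipid export and fatty acid use were read beside the 31. Npc2, which moves cholesterol out of lysosomes, was at 3324 CPM (2780.5 to 3922) in type 2 epithelium-like cells and at 669 CPM (553 to 789.97) in interstitial macrophage-like cells. The elongase Elovl1 was at 1032 CPM (854 to 1381) in type 2 epithelium-like cells and at 89.5 CPM (70.1 to 96.3) in alveolar macrophage-like cells. Plin2, a lipid droplet coat protein, was at 1558 CPM (1392 to 1868) in alveolar macrophage-like cells, against 173 CPM (143 to 222) in type 2 epithelium-like cells. The sterol exporter Abcg1 was at 1367 CPM (1177 to 1547) in alveolar macrophage-like cells and at 0 to 6.88 CPM in type 2 replicates. In 695 tests of these 40 genes edgeR gave 0 calls (0.447% over all genes) and 58 unadjusted p-values under 0.05 (8.35%, beside 8.1% over all genes). DESeq2 gave 1 call (0.501%) and 30 such p-values (4.32%, beside 4.44%). That call was Ch25h, which makes an oxysterol, between genotypes in normal lung in interstitial macrophage-like cells (DESeq2 adjusted p = 0.0487), where edgeR gave a log2 fold change of 1.30 ± 0.34 (SE, adjusted p = 0.089). Over its 13 alternatives the adjusted p ran from 0.000644, without the filter on low counts, to 0.456, and 4 of them passed. Without the filter 7 of 1075 tests passed, beside 0.615% over all genes. They were Ch25h and Abcg1 in interstitial macrophage-like cells, each in the interaction as well as in 1 contrast, Gpam and Elovl1 in type 2 epithelium-like cells, and Plin2 in neutrophil-like cells. These 5 genes were singled out after their values were seen.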

How the data were processed

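Single-cell RNA of the 4 libraries was measured with a 3' droplet kit. The deposited counts are UMIs per gene and barcode, and per the submitters' processing notes Cell Ranger 4.0.0, STAR, Seurat 3.2.0 and mm10 were used. Cells needed at least 300 genes and at most 10% mitochondrial UMIs, which 15793 barcodes had. Hashtags were called per library with HTODemux (Seurat 5.3.0, quantile 0.99). Doublets of hashtags (17.96%) and cells without a hashtag (27.47%) were set aside, and Scrublet marked 133 of the kept cells, which stayed in. Clusters (scanpy 1.11.5, leidenalg 0.10.2, 2000 variable genes without pathway genes, 30 components, resolution 1.0) were named from marker genes. Sums of UMIs over the cells of a class in a replicate (10 or more cells) went into edgeR 4.0.16 (TMM, filterByExpr, quasi-likelihood, all groups in 1 fit, Benjamini-Hochberg over all genes, threshold 0.05), in classes with at least 2 replicates per group. DESeq2 1.42.0, no filter, the 2 groups alone, left-out replicates, other clusterings, removal of Scrublet-marked cells and rescued hashtags were alternatives. The edgeR step was also run on simulated data for genotype in tumor-bearing lung, in fibroblast-like, type 2 epithelium-like and interstitial macrophage-like cells. The changed genes there were drawn at random, so that run does not give the power for the 31 genes. Median UMIs per kept cell were 4251 to 5786 per library, which limits the precision of genes with few UMIs. By rule all 31 members were named, by role. The members, lists and rule were chosen with earlier results of these data known.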

Additional observations from a re-analysis of the deposited data

How the results depend on the processing

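No paired analysis was possible because the labels give no replicate numbers, and hashtag numbers mark different replicates in each library. Of 366 alternative values of the 27 counts of members past the threshold, 3 moved, all without the filter on low counts, from 0: to 2 in alveolar macrophage-like cells between genotypes in tumor-bearing lung (Insig1 and Msmo1), to 1 in interstitial macrophage-like cells with tumor in LAIR1KO (Insig1) and to 1 there with tumor in WT (Scd2). The cause was not tested. The Idi1 difference of mean log2 CPM in fibroblast-like cells was 1.04 in WT and 1.22 in LAIR1KO, 0.67 and 0.63 with rescued hashtags, 0.94 to 1.09 and 0.91 to 1.43 over left-out replicates, and 0.88 and 0.98 in the largest cluster. The log2 fold change of Idi1 changed sign for tumor in LAIR1KO type 2 epithelium-like cells without LAIR1KO normal replicate 3 (0.0044), for tumor in LAIR1KO endothelium-like cells without LAIR1KO normal replicate 1 (-0.14), and in fibroblast-like cells for genotype in normal lung without LAIR1KO normal replicate 1 (0.016). For genotype in tumor-bearing fibroblast-like cells it did so with rescued hashtags (0.054), without LAIR1KO tumor-bearing replicate 1 (0.065) and without WT tumor-bearing replicate 1 (0.052). Over left-out replicates these 4 log2 fold changes ran from -0.205 to 0.0044, from -0.139 to 0.207, from -0.232 to 0.016 and from -0.114 to 0.065. None of the values that changed sign passed the threshold.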
